A study of Homo sapiens with 6 samples.

Results

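The genes described are 10 immediate early genes chosen by name: the AP-1 subunits FOS, FOSB, FOSL1, FOSL2, JUN and JUNB, the EGR zinc finger factors EGR1, EGR2 and EGR3, and IER2. A member was taken from the array where a probe set carried its symbol and no other. This gave 9 of the 10 members, among 18417 genes in all, and each had 1 probe set. EGR2 was not analysed here. All 9 passed the filter on low signals that was tried as an alternative, which leaves out the dimmest 40% of genes.

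Gene expression was measured in U-87 cells, an established human glioma line, on 6 Affymetrix arrays. The groups were P68 knockdown (3 arrays) and P68 wild type (3 arrays), P68 being an RNA helicase of the DEAD-box family, the product of DDX5. The labels name transfection of an siRNA called siP68 or of a reagent abbreviated NC, and do not say which of these the wild-type cells received, or how long after it RNA was taken. All cells were grown in complete DMEM with fetal bovine serum, and the labels do not give the number of cultures or siRNA sequences behind the arrays. The p-values below are thus set against the variation from array to array alone, and that variation could be technical.

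Immediate early genes are transcribed within minutes of a stimulus such as serum or a growth factor, without new protein synthesis. Signals through ERK and other kinases act on factors already bound at their promoters, among them SRF with its ELK partners at CArG boxes and CREB at cyclic AMP response elements. The FOS and JUN proteins pair through leucine zippers to form AP-1, and the EGR proteins bind GC-rich sites, so that both pass a brief signal on to later target genes. Their mRNAs are short-lived, and their level in a growing culture depends on recent stimulation.

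The promoters of 5 members are shown because these genes span the range of the results: EGR1 and IER2 had the highest differences between the groups, JUN and JUNB were the lower pair among the AP-1 genes, and FOS is the classical member. Each sequence holds the 250 bases before the gene's start, 5′ to 3′, from RefSeq on GRCh38.p14. Capitals mark the CArG box, the MEF2 box, TGACATCA (the AP-1-like site of the JUN promoter) and TGACG (the core of the cyclic AMP response element), searched on both strands, so that CGTCA is TGACG read from the other strand. The EGR1 window is chr5:138465229-138465478 on the plus strand, IER2 chr19:13150161-13150410 on the plus strand, JUN chr1:58784048-58784297 on the minus strand, JUNB chr19:12791236-12791485 on the plus strand and FOS chr14:75278578-75278827 on the plus strand.
EGR1: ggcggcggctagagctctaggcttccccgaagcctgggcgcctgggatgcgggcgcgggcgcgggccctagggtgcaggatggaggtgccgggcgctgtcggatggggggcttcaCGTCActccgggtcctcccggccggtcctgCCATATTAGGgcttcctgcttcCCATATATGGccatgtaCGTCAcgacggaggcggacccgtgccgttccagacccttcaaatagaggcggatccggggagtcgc
IER2: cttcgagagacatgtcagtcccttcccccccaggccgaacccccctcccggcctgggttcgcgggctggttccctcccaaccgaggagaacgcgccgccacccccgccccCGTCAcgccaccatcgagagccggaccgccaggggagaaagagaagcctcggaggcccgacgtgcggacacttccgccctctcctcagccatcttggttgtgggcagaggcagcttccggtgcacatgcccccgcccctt
JUN: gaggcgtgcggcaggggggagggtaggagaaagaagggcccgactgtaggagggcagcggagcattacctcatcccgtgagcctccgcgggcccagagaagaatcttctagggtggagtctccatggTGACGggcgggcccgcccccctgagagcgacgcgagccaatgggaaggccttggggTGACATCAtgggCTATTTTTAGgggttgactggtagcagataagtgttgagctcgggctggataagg
JUNB: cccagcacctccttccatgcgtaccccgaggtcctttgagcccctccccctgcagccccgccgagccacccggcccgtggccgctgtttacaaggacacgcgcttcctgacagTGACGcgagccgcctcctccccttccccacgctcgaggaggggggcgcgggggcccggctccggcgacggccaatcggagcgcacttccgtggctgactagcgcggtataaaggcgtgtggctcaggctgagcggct
FOS: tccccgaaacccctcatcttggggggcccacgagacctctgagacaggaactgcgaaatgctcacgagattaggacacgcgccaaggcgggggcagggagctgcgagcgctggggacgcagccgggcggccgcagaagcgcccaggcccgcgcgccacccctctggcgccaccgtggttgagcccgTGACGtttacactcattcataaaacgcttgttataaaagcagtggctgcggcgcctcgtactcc

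The windows differ in the sites they hold. EGR1 had 2 CArG boxes, the SRF-binding element, which began 105 and 83 bases before the gene's start. A CArG box was found in 1.16% of 35116 human promoter windows of the same length, and in no other member window searched. JUN had the MEF2 box, found in 0.515% of all windows, and TGACATCA, found in 2.37%. TGACG was present in 7 of 7 member windows searched (FOS, FOSB, FOSL2, JUN, JUNB, EGR1 and IER2), against 21.2% of all windows. The windows of FOSL1 and EGR3 were not searched, so these counts do not cover all the measured members. The full palindrome TGACGTCA, which contains TGACG, was in none of the 7 and in 1.65% of all windows, and the AP-1 site TGANTCA was in none of the 7 and in 6.57% of all. These are matches of letters within the window, and elements farther upstream were not searched.

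The targeted gene was checked before the members. DDX5 gave log2 signals of 9.47, 9.79 and 9.91 on the knockdown arrays, against 10.09, 10.25 and 10.30 on the wild-type arrays. All 3 knockdown arrays were below every wild-type array, and the signal left was 71.2% of wild type (95% interval 58.4% to 86.9%). The DDX5 difference also had an adjusted p of 0.902 (limma) over all genes. Among markers of the line, vimentin (VIM) averaged 7.50 in the knockdown, against 7.70 in the wild type, and the glial filament GFAP averaged 5.57 in the knockdown, against 5.66 in the wild type, while nestin (NES) averaged 5.83 in the knockdown, against 5.73 in the wild type. The other 4 glioma-line markers, CD44, SOX2, S100B and AQP4, had higher means in the knockdown (by most for AQP4, with 3.08 against 2.71). They lay among the dimmest 40% of genes, as did 3 of 3 measured leukocyte markers, 3 of 3 epithelial, 1 of 3 endothelial and 1 of 3 neuronal markers. The neuronal marker RBFOX3 averaged 5.84 in the knockdown, against 5.67 in the wild type, and SNAP25 averaged 5.09, against 5.17. Without detection calls, a signal outside the dimmest 40% does not show that a gene is expressed. Signals summed over the leukocyte markers were 38.9 to 41.8 in the knockdown, against 31.9 to 36.4 in the wild type, on the linear scale. By gene, CD14 averaged 4.46 in the knockdown against 4.04 in the wild type (log2), CD3E 3.52 against 3.50 and PTPRC 2.66 against 2.81. The part of these markers in the results below was not tested.

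No member passed the test. With limma across all 18417 genes and Benjamini-Hochberg adjustment, 0 of 9 members and 0% of all genes had an adjusted p under 0.05, and the lowest adjusted p among the members was 0.902. At an unadjusted p under 0.05 there was 1 of 9 members, IER2, against 5.09% of all genes, which were 3.02% higher and 2.06% lower in the knockdown. The groups did not overlap for 3 of 9 members: EGR1 and IER2 had higher values in the knockdown and FOSL2 lower ones. The background of genes whose groups did not overlap was 10.1%, made up of 5.98% higher and 4.15% lower in the knockdown. Differences were positive for 4 members and negative for 5, where 9662 of the 18417 genes lay above 0 and 8563 below. The members' median on the log2 scale was -0.047, against 0.010 over all genes. The median absolute log2 difference was 0.093 for the members and 0.090 for all genes.

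**Figure D1:**
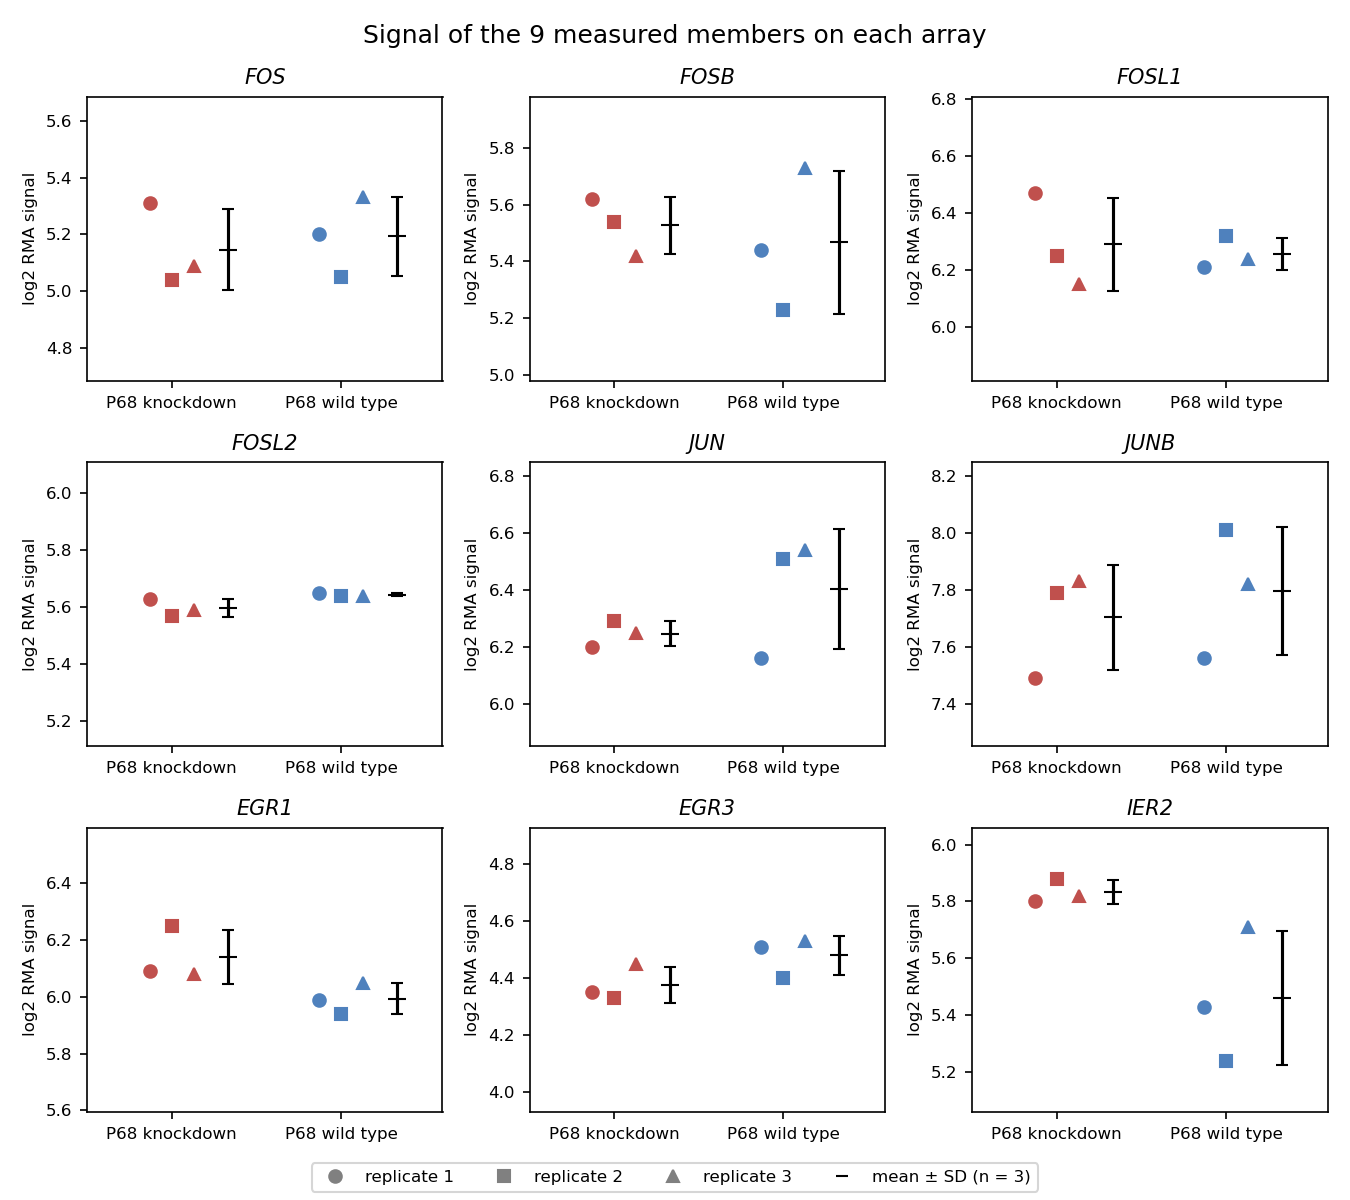
Log2 RMA signal (vertical axes, each spanning 1 log2 unit) of the 9 measured members on the 3 P68 knockdown arrays (red, left) and the 3 P68 wild-type arrays (blue, right), with the group mean ± SD in black. IER2 and EGR1 lie higher on every knockdown array than on any wild-type array, FOSL2 lies slightly lower, and the groups overlap for the other 6 genes.

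IER2 encodes a small nuclear protein that is induced with FOS and JUN after growth factor stimulation. Its log2 signal was 5.80, 5.88 and 5.82 in the knockdown, against 5.43, 5.24 and 5.71 in the wild type. The knockdown arrays lay within 0.08 of each other, the wild-type arrays spread over 0.47, and wild-type replicate 3 came within 0.09 of the lowest knockdown array. The means were 5.83 ± 0.04 for knockdown arrays, against 5.46 ± 0.24 for wild-type arrays (SD, n = 3 each), so the knockdown signal was 130% of wild type with a 95% interval of 107% to 157%. By unadjusted p (0.0139, limma) IER2 ranked 212 of the 18417 genes. In an exact permutation test (two-sided) its p was 0.1, the smallest value that 3 arrays against 3 allow. The log2 difference of 0.37 was 0.26 without wild-type replicate 2, its dimmest array, and 0.50 without wild-type replicate 3.

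EGR1 is the EGR factor most widely used as a marker of ERK activity. It gave 6.09, 6.25 and 6.08 in the knockdown, against 5.99, 5.94 and 6.05 in the wild type. The groups were apart by only 0.03 between knockdown replicate 3 and wild-type replicate 3, while knockdown replicate 2 was the highest of the 6 arrays. The means were 6.14 ± 0.10 for knockdown arrays, against 5.99 ± 0.06 for wild-type arrays (SD, n = 3 each), and differed by 0.15 ± 0.10 (log2, SE). The knockdown signal was 111% of wild type, with a 95% interval of 94.9% to 129% that includes no difference (adjusted p = 0.903, limma). Without knockdown replicate 2 the log2 difference was 0.09. EGR1 varied little within the groups, its pooled SD being at the 12.5th percentile of all genes.

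EGR3, which is itself a target of calcium and growth factor signalling and acts beside EGR1, did not follow EGR1. Its log2 signal was 4.35, 4.33 and 4.45 in the knockdown, against 4.51, 4.40 and 4.53 in the wild type. Knockdown replicate 3 exceeded wild-type replicate 2, so the groups overlapped, though the other arrays were in order. The knockdown signal was 93.1% of wild type (95% interval 80% to 108%), and the log2 difference of -0.10 ± 0.10 (SE) had an adjusted p of 0.917 (limma). EGR3 was the dimmest member, near the signal of 4.28 that marks the dimmest 40% of genes, where signal cannot be told from background without detection calls. EGR1 thus lay above 0 and EGR3 below, and the difference between the 2 genes was not tested. EGR4, the related factor outside the member list, named after its values were seen, gave 5.74, 5.89 and 5.86 in the knockdown, against 5.69, 5.80 and 5.69 in the wild type, and its groups overlapped.

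FOS, the partner that lends AP-1 its strongest activation, showed no separation of the groups. Its log2 signal was 5.31, 5.04 and 5.09 in the knockdown, against 5.20, 5.05 and 5.33 in the wild type. Knockdown replicate 1 and wild-type replicate 3 were the high arrays and knockdown replicate 2 and wild-type replicate 2 the low ones. The means of 5.15 ± 0.14 for knockdown arrays and 5.19 ± 0.14 for wild-type arrays (SD, n = 3 each) differed by less than either SD, and the knockdown signal was 96.8% of wild type (95% interval 80.9% to 116%). The log2 difference of -0.05 was -0.13 when knockdown replicate 1 was left out and 0.02 when wild-type replicate 3 was.

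FOSB, which can replace FOS in AP-1, was likewise spread within groups. It gave 5.62, 5.54 and 5.42 in the knockdown, against 5.44, 5.23 and 5.73 in the wild type. The wild type held both the highest and the lowest array, replicate 3 and replicate 2, so that its range of 0.50 covered that of the knockdown. The knockdown signal was 104% of wild type (95% interval 84.8% to 128%), and the difference, 0.06 (log2), turned to -0.06 without wild-type replicate 2 and 0.19 without wild-type replicate 3.

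FOSL1 and FOSL2 encode FRA1 and FRA2, AP-1 partners that lack the strong activation domain of FOS and last longer after a stimulus. FOSL1 gave 6.47, 6.25 and 6.15 in the knockdown, against 6.21, 6.32 and 6.24 in the wild type. Here the knockdown held both extremes, with replicate 1 highest and replicate 3 lowest, and the log2 difference of 0.03 was -0.06 without knockdown replicate 1. The FOSL1 signal was 102% of wild type (95% interval 86.2% to 121%).

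FOSL2 gave 5.63, 5.57 and 5.59 in the knockdown, against 5.65, 5.64 and 5.64 in the wild type. All 3 knockdown values were lower, but the whole range over 6 arrays was 0.08, and the pooled SD within groups was at the 0.147th percentile of all genes. The difference of -0.05 ± 0.09 (log2, SE) had an adjusted p of 0.954 in limma, whose SE for a gene this steady is drawn from the spread of all genes. In the exact permutation test (two-sided) the p was 0.1, the smallest possible here. The FOSL2 signal was 96.8% of wild type (95% interval 83.9% to 112%).

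JUN encodes the central partner of AP-1, which binds as a dimer with FOS proteins or with itself and is activated by the kinase JNK. It gave 6.20, 6.29 and 6.25 in the knockdown, against 6.16, 6.51 and 6.54 in the wild type. Wild-type replicates 2 and 3 lay above every knockdown array, while wild-type replicate 1 was the lowest of the 6. The means were 6.25 ± 0.05 for knockdown arrays, against 6.40 ± 0.21 for wild-type arrays (SD, n = 3 each), and the knockdown signal was 89.7% of wild type (95% interval 74.5% to 108%, adjusted p = 0.912, limma). The log2 difference of -0.16 was -0.28 without wild-type replicate 1 and -0.09 without wild-type replicate 3.

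JUNB, a weaker activator that can restrain JUN, gave 7.49, 7.79 and 7.83 in the knockdown, against 7.56, 8.01 and 7.82 in the wild type. Replicate 1 was the lowest array of each group, and the ranges overlapped. Its pooled SD within groups, 0.21, was the highest among the members and at the 79.8th percentile of all genes. The knockdown signal was 93.7% of wild type (95% interval 75.6% to 116%), and the log2 difference of -0.09 was 0.01 without knockdown replicate 1 or without wild-type replicate 2 and -0.21 without wild-type replicate 1.

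**Figure D2:**
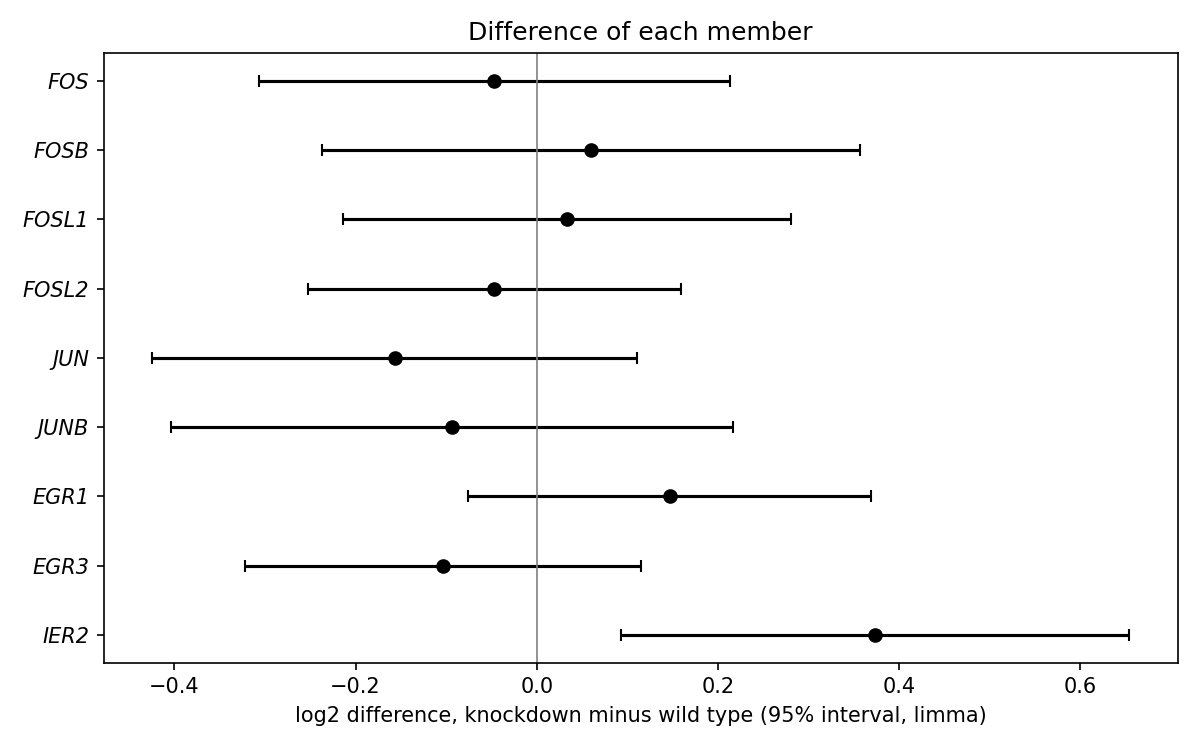
Log2 difference, P68 knockdown minus P68 wild type (horizontal axis), for each of the 9 members, with its 95% interval from limma as bars. Only the interval of IER2, 0.09 to 0.65, lies wholly to the right of 0, and this interval is not adjusted for the number of genes tested.

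The intervals bound the size of change for each gene. Every member interval except that of IER2 included no difference. The lower bounds ran from 74.5% (JUN) to 107% (IER2) of wild type and the upper bounds from 108% (JUN and EGR3) to 157% (IER2). No member interval thus reached a halving or a doubling of signal on this scale. A fold change in array signal may understate the change in mRNA, since background adds to both groups.

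Across arrays the members did not move as a block. Deviations of each gene from its own mean over the 6 arrays showed wild-type replicate 3 highest for 4 of 9 members (FOS, FOSB, JUN and EGR3), against 12.1% of all genes. Wild-type replicate 2 was lowest for 3 members (FOSB, EGR1 and IER2), against 18.1% of all genes, and highest for JUNB. Knockdown replicate 2 was highest for EGR1 and IER2, against 25.5% of all genes, and lowest for FOS, FOSL2 and EGR3, against 18.7% of all genes. The median deviation of the members ran from -0.063 on wild-type replicate 1 to 0.070 on wild-type replicate 3, a span inside which the 3 knockdown arrays (0.023, -0.023 and -0.030) all lay. DDX5 was lowest on knockdown replicate 1, and the IER2 deviation there, 0.153, was the smallest of the 3 knockdown arrays. These 3 IER2 values lay within 0.08 of each other, and a relation between DDX5 and IER2 was not tested.

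**Figure D3:**
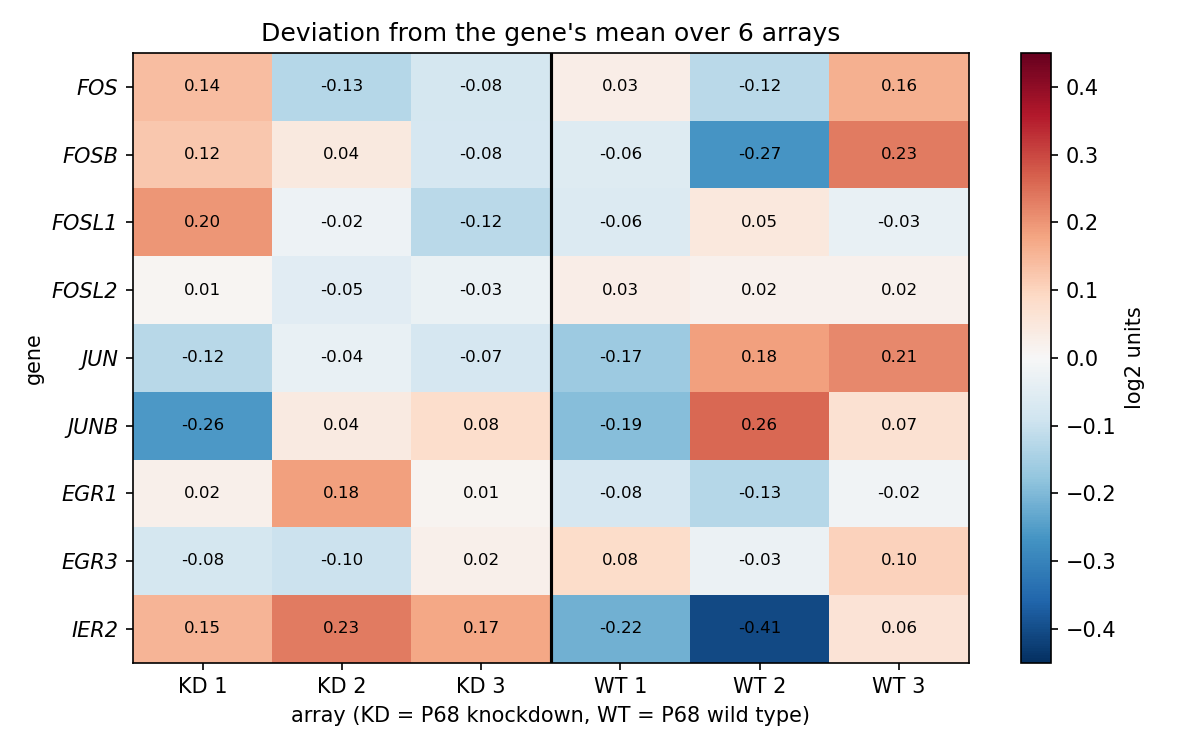
Deviation of the log2 signal of each member (rows) on each array (columns, P68 knockdown left of the black line, P68 wild type right of it) from the gene's mean over the 6 arrays, in log2 units, blue low and red high. JUN and JUNB are lowest on replicate 1 of both groups, though JUN is below its mean on all 3 knockdown arrays. IER2 ranges from -0.41 on wild-type replicate 2 to 0.23 on knockdown replicate 2.

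JUN and JUNB, but not JUND, had the same 2 lowest arrays, 1 from each group. For JUN and JUNB the 2 lowest arrays were knockdown replicate 1 and wild-type replicate 1, where the mean deviation of both genes was -0.192 and -0.178. The knockdown arrays of JUN lay within 0.09 of each other, all below its mean, so its knockdown replicate 1 hardly stood out. JUND was highest on knockdown replicate 1, at 7.34, and lowest on knockdown replicate 2, at 7.02. The same pair of arrays was lowest for 9.72% of all genes and for 25 of the 114 other measured genes of the related lists described below (21.9%). Among these was MAPK8, which encodes the JUN kinase JNK1, at 7.85, 8.28 and 8.50 in the knockdown, against 7.92, 8.69 and 8.75 in the wild type. CREB5, a bZIP partner of JUN, gave 4.37, 4.93 and 4.92 in the knockdown, against 4.57, 5.18 and 5.03 in the wild type. Both genes had lower means in the knockdown, by differences of -0.24 ± 0.22 and -0.19 ± 0.19 (log2, SE) that were each close to 1 SE. Leaving out knockdown replicate 1 brought them to -0.063 for MAPK8 and -0.002 for CREB5, and leaving out wild-type replicate 1 to -0.51 and -0.365. Whether replicate 1 of both groups is set apart, and by what, was not tested.

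Genes whose array pattern lay closest to FOS and EGR1 were sought among 11052 genes outside the dimmest 40%, by the root mean square difference of the deviations over the 6 arrays. For FOS they were EEF2KMT, a methyltransferase of elongation factor 2, AGPAT2, an enzyme of phosphatidic acid synthesis, and EMX2, a homeobox factor, at 0.037, 0.039 and 0.040 log2 units, where the median gene was at 0.179. For EGR1 they were CLEC14A, a C-type lectin, SKIDA1 and NME4, a mitochondrial nucleoside diphosphate kinase, at 0.016, 0.022 and 0.023, where the median gene was at 0.154. No other member was among these, which says little, as only the 3 closest of 11052 genes were taken for each. How close the best matches of other genes are was not computed.

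Other genes of the pathway were set beside the members as 6 lists of 124 genes in all, of which 114 were measured. None of the 114 passed the test over all genes (limma, lowest adjusted p 0.902), 5 had an unadjusted p under 0.05 (PLK2, SPP1, PLAU, HBEGF and PDGFB), where 5.09% of all genes did, and the groups did not overlap for 13 (11.4%, against 10.1% of all genes). Of the 114, 53 lay above 0 and 60 below, where 9662 of the 18417 genes lay above 0 and 8563 below. The median of the 114 was -0.015.

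Upstream of the members, 18 of 22 factors and kinases acting on serum response and cyclic AMP response elements were measured, with 7 above 0, 11 below and a median of -0.037. SRF, the factor that binds the CArG boxes shown for EGR1, gave 7.00, 7.12 and 7.05 in the knockdown, against 6.85, 6.99 and 6.90 in the wild type. Its groups were apart by 0.01 and the log2 difference was 0.14, chosen for mention after its values were seen, as were its cofactors ELK3 (-0.18) and MRTFB (-0.16), whose groups were apart in the other direction. These genes made up 16.7% of the list, where groups were apart for 10.1% of all genes. The highest difference of the list was that of ELK1, the ERK-regulated SRF partner, with 6.30 ± 0.40 for knockdown arrays, against 6.04 ± 0.12 for wild-type arrays (SD, n = 3 each). That value rested on knockdown replicate 1 at 6.71, without which the log2 difference was 0.05 in place of 0.26. MAPK8 had the lowest difference.

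Of 13 measured AP-1 partners, 6 lay above 0 and 7 below (median -0.053), and no gene had groups apart. BATF, a bZIP factor of lymphocytes, had the highest difference, 0.19 ± 0.11 (log2, SE), and CREB5 the lowest. JUND, the third JUN protein, also named after its values were seen, gave 7.34, 7.02 and 7.17 in the knockdown, against 7.07, 7.25 and 7.14 in the wild type, with overlapping groups. The BATF difference was 0.105 without knockdown replicate 2.

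Other immediate early genes showed 10 of 33 above 0 and 23 below, with a median of -0.057. NR4A1, an orphan nuclear receptor induced like EGR1, had the highest difference of this list. Its signal was 5.71, 5.96 and 5.62 in the knockdown, against 5.48, 5.42 and 5.61 in the wild type, higher on all 3 knockdown arrays by 0.01 at the closest pair, and its log2 difference of 0.26 was 0.162 without knockdown replicate 2. PLK2, a polo-like kinase of the serum response, had the lowest difference, at 8.15, 7.47 and 8.07 in the knockdown, against 8.21, 8.32 and 8.46 in the wild type. Without knockdown replicate 2, its dimmest array, the PLK2 log2 difference was -0.22 in place of -0.43. The groups were also apart for IER5L (0.23), NPAS4 (-0.16) and MCL1 (-0.19), log2 differences given after their values were seen. The median of the list was -0.118 without wild-type replicate 1 and -0.013 without wild-type replicate 3.

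Among 14 genes that restrain these factors, 6 lay above 0, 7 below and 1 at 0 (median -0.047), and none had groups apart. ZFP36, which speeds the decay of AU-rich mRNAs such as that of FOS, gave 5.15, 5.63 and 4.87 in the knockdown, against 5.04, 4.82 and 5.04 in the wild type, and its log2 difference of 0.25 was 0.04 without knockdown replicate 2. COP1, a ubiquitin ligase that acts on JUN, had the lowest difference, -0.20 ± 0.12 (log2, SE), which was -0.112 without knockdown replicate 1 and -0.317 when knockdown replicate 3 was left out instead. NAB2, the EGR corepressor and itself an EGR target, had a log2 difference of 0 and is given after its value was seen.

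Downstream, 16 of 22 measured AP-1 targets lay above 0 and 6 below, with a median of 0.053, and 9 of the 22 were among the dimmest 40% of genes. The groups were apart for 3, all higher in the knockdown, which is 13.6% of the list. Over all genes the share was 10.1% in either direction and 5.98% in that direction, which was taken from the result. These were SPP1, the secreted phosphoprotein osteopontin and the highest of the list, and, given after their values were seen, the urokinase gene PLAU and HBEGF, an EGF receptor ligand. SPP1 gave 3.45, 3.48 and 3.25 in the knockdown, against 3.13, 2.96 and 3.23 in the wild type, all below the signal of 4.28 that marks the dimmest 40%. HBEGF gave 4.87, 4.52 and 4.56 in the knockdown, against 4.41, 4.28 and 4.43 in the wild type. All 3 of these, of the 22, had an unadjusted p under 0.05, which 3.02% of all genes had with higher values in the knockdown, and an adjusted p of 0.902 (limma). CCND1, the G1 cyclin, had the lowest difference, -0.13 ± 0.10 (log2, SE).

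Of 19 measured EGR targets, 10 lay above 0, 8 below and 1 at 0 (median 0.017). PDGFB, a growth factor chain, had the highest difference of all the lists, at 5.55, 5.71 and 5.96 in the knockdown, against 5.28, 5.40 and 5.38 in the wild type. All knockdown arrays exceeded all wild-type arrays, and the log2 difference of 0.39 ± 0.12 (SE) ranked 128 of the 18417 genes by unadjusted p (0.00907, adjusted p 0.902, limma). MDM2, the p53 ubiquitin ligase, had the lowest difference, -0.25 ± 0.12 (log2, SE), with overlapping groups, and -0.162 without wild-type replicate 1. The groups were also apart for FN1, fibronectin, at a log2 difference of -0.21, given after its value was seen. With PDGFB this made 10.5% of the list, against 10.1% of all genes.

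**Figure D4:**
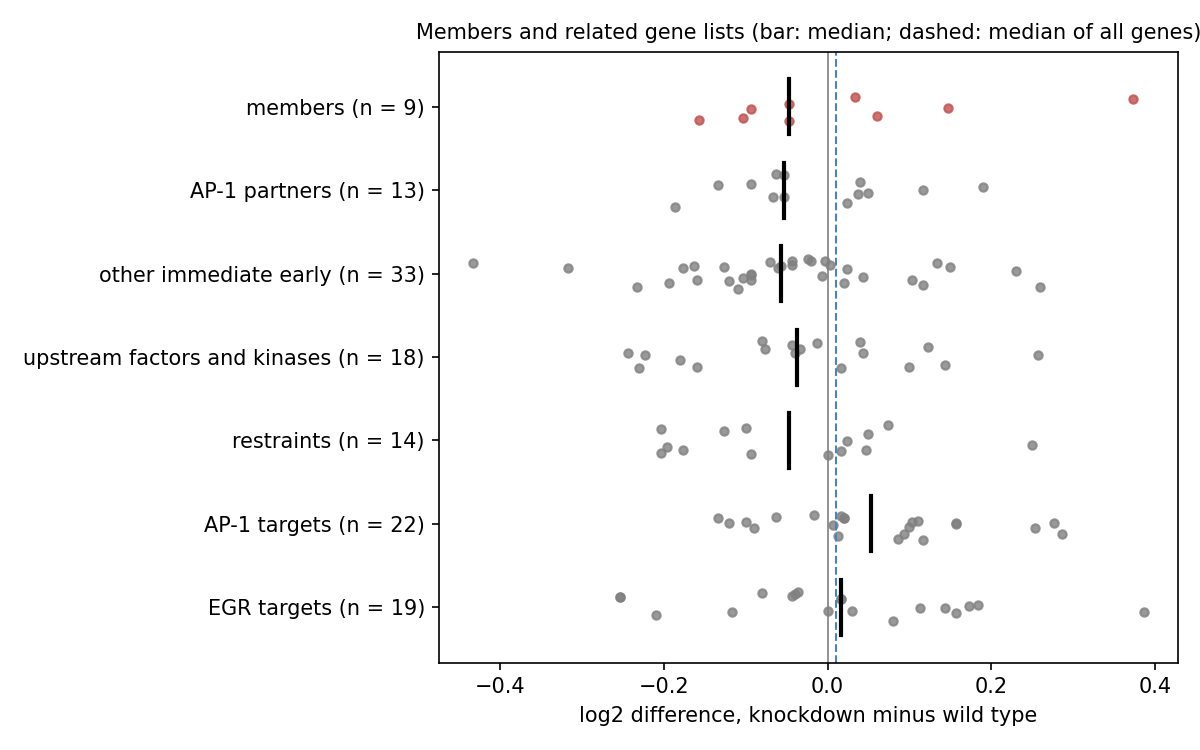
Log2 difference, P68 knockdown minus P68 wild type (horizontal axis), of the members (red points, top row) and of the measured genes of 6 related lists (grey points), with each median as a black bar and the median of all genes, 0.010, dashed. List medians lie between -0.057 and 0.053, and IER2 is the rightmost member at 0.37.

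Each member's difference ranged more widely with 1 array left out than under median centring, the second quantile normalisation, cyclic loess and array weights. The other choices tried could not change these differences. They were the other probe set rules, the filter on low signals, the intensity trend and the replicate block. With 1 array left out at a time, the difference changed its sign at least once for FOS, FOSB, FOSL1 and JUNB. The sign was kept for JUN and EGR3, whose groups overlapped. FOSL2, EGR1 and IER2 also kept theirs, but their groups did not overlap, so leaving out 1 array could not reverse it. The IER2 difference ran from 0.26 to 0.50, that of EGR1 from 0.09 to 0.18 and that of JUN from -0.28 to -0.09.

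**Figure D5:**
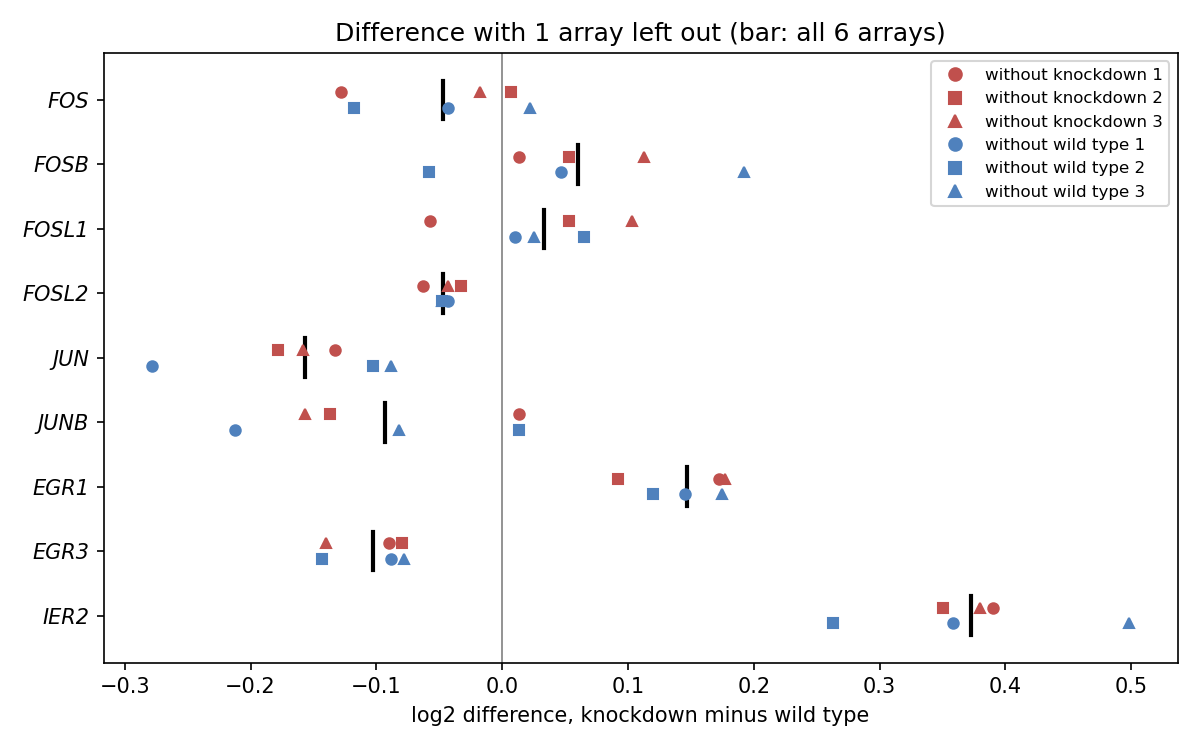
Log2 difference, P68 knockdown minus P68 wild type (horizontal axis), of each member with 1 array left out (red: a knockdown array, blue: a wild-type array, shape: its replicate number) and with all 6 arrays (black bar). The points of FOS, FOSB, FOSL1 and JUNB lie on both sides of 0, while those of IER2 lie between 0.26 and 0.50.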

How the data were processed

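Total RNA of U-87 cells was measured on 6 Affymetrix arrays, 3 of P68 knockdown and 3 of P68 wild type. The deposited table holds log2 signals of 29096 probe sets that the authors made with RMA, per the submitters' processing notes. RMA corrects background, equalises the arrays' distributions and summarises probes, so it hides any shift common to most genes. The filters, its version and the genome build were not given in the sources used here. Probe annotation gave 1 symbol to 19460 probe sets, several to 1754 and none to 7882. Per gene the probe set with the highest mean was kept (18417 genes). Genes were compared with limma 3.58.1 (lmFit, eBayes, two-sided tests) under R 4.3.3 in a model of group alone, adjusted by Benjamini-Hochberg at 0.05. The fit was run on simulated data with independent noise and added differences larger than those of the members. That run does not show how often differences as small as the members' would be called. Exact permutation tests used the 6 arrays.

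The members and lists were chosen with earlier results of these data known. Genes named by a written rule are the members, DDX5, the highest and lowest gene of each list, and the 3 closest in pattern to FOS and to EGR1. Other list genes (EGR4, JUND, SRF, ELK3, MRTFB, IER5L, NPAS4, MCL1, NAB2, PLAU, HBEGF and FN1) were named after their values were seen. Alternatives were median centring, cyclic loess, a second quantile normalisation, removal of the dimmest 40% of genes, other probe set rules, an intensity trend, array weights, a replicate block and leaving out each array. The number of arrays limits precision, with a median SE of 0.12 (log2). Array medians lay between 4.32 and 4.37. Every pair of arrays differed, by an SD over probe sets of 0.22 or more.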

Additional observations from a re-analysis of the deposited data

How the results depend on the processing

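Under all 15 alternatives limma called 0 of the 9 members and 0 genes in all, with the lowest adjusted p among the members between 0.664 and 0.998. At an unadjusted p under 0.05 there were 543 to 1353 genes and 0 to 2 members, with 0 members when wild-type replicate 2 was dropped. The median difference of all genes lay between -0.007 and 0.015 (log2) over these alternatives. The members' median difference of -0.047 was -0.063 with median centring, -0.023 with the second quantile normalisation and -0.043 with cyclic loess. It lay between -0.057 and 0.022 with 1 array left out, and was positive when knockdown replicate 2 (0.007) or wild-type replicate 3 (0.022) was dropped. Over the same omissions the log2 difference ran from -0.128 to 0.022 for FOS, from -0.058 to 0.192 for FOSB, from -0.057 to 0.103 for FOSL1 and from -0.212 to 0.013 for JUNB. With array weights FOSB gave -0.001 and FOSL1 -0.014, which left 2 members above 0. The JUNB difference, -0.093, was -0.023 with the second quantile normalisation and -0.043 with cyclic loess. That of DDX5, -0.490, was -0.396 and -0.389 in the same order. The EGR target median, 0.017, was -0.037 without the dimmest 40% of genes, -0.029 with array weights, -0.010 with knockdown replicate 1 dropped and -0.025 with wild-type replicate 2 dropped. The AP-1 partner median, -0.053, was 0.048, 0.007 and 0.017 with knockdown replicate 1, wild-type replicate 2 or wild-type replicate 3 dropped. The upstream median, -0.037, was 0.010 with wild-type replicate 2 dropped, and the restraint median, -0.047, was 0.015 with wild-type replicate 3 dropped. The medians of the AP-1 targets and the other immediate early genes kept their sign under all 15. The cause of these shifts was not tested. Deviations from the group means correlated over all genes at 0.268, -0.027 and 0.125 for the same-numbered arrays 1, 2 and 3. For arrays of different numbers the correlations ran from -0.251 to 0.170. Whether same-numbered arrays were paired was not tested. With the replicate block 0 genes and 0 members were called, and the lowest adjusted p of a member was 0.791 (limma). In this balanced design the block cannot change a difference, so the members' median of -0.047 could not move. The block gave 1149 genes an unadjusted p under 0.05 (limma), against 937 in the main model. Without detection calls, signals near background, such as that of EGR3, limit what can be read.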
